A study of Homo sapiens with 18 samples.

Results

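MM1S is a human multiple myeloma cell line, and its control cells were set against the control cells of H929 and OPM2, a pair of other myeloma lines. The MM1S group was 2 libraries, of 18 in the series, and each of the other lines gave 2 control libraries as well. All of these cells carried the empty vector of a doxycycline-inducible CRISPR-Cas9 system, so no gene was targeted, and all had been given doxycycline at 1 µg/mL for 72 h. Live cells were sorted by flow cytometry and messenger RNA was sequenced after purification with RNeasy Plus and library preparation with TruSeq kits. The series asked how loss of IKZF1 (Ikaros), loss of IKZF3 (Aiolos) or lenalidomide acts on CD38 in myeloma cells. The comparison described here covers only how the control cells of the 3 lines differ. The fit behind its p-values held all 18 libraries, so libraries of the other groups entered the estimate of spread. The labels name neither clones nor separate cultures, so p-values measure the spread between libraries of a group, which may be technical. Each line stands for the tumour of a single patient, and a difference between lines is a difference between those 3 cell lines, not between classes of myeloma.

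Myeloma is a cancer of plasma cells, the antibody-secreting end of the B cell lineage. Many myelomas carry a translocation that puts an oncogene beside the immunoglobulin heavy chain enhancers. MM1S is known for such a translocation at MAF, a leucine zipper transcription factor, while H929 and OPM2 are known for one that joins the locus to NSD2, a histone methyltransferase, and to FGFR3, a receptor tyrosine kinase. Plasma cells normally switch off antigen presentation on MHC class II, together with much of the B cell programme, when PRDM1 and XBP1 drive secretion.

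The 6 empty vector libraries held 14219267 to 22351209 counts in genes, and levels are given as CPM, counts per 1000000 counts of a library after TMM scaling. The MM1S libraries differed from each other by a root mean square of 1.22 on the log2 scale over the 500 genes that differed most. Between lines that distance was 6.75 to 6.92 for MM1S and H929, 7.51 to 7.55 for MM1S and OPM2, and 6.83 to 6.97 for H929 and OPM2. Replicate 1 of OPM2 stood apart from replicate 2, with 1625 genes over 2-fold apart, against 321 between the MM1S and 258 between the H929 libraries. The counts of genes called and set apart, the counts of each list and the calls of named genes were therefore also taken without it, and with untreated OPM2 libraries in its group's place. The counts by size of fold, by chromosome, by window and by motif were not. Defining markers of other cells were low. PAX5, the B cell identity factor, was at 0.117 and 0 CPM in MM1S, against 1.13 and 1.27 CPM in H929 and 0 and 0.228 CPM in OPM2. The 7 myeloid, 8 T and NK cell and 3 stromal and epithelial markers tested summed to 50.2 and 50.7, 4.17 and 4.42, and 0.235 and 0.132 CPM in the MM1S libraries. The myeloid sum came mostly from CD68, at 34.3 CPM in both MM1S libraries, against 37.4 and 40.1 CPM in H929 and 2.65 and 1.55 CPM in OPM2. CD68 was not higher in MM1S than in H929. By the rule given below, 3 of the 7 myeloid markers were set apart higher and 0 lower, beside 18% and 18.3% of all genes. SDC1 (syndecan-1, CD138), the defining surface protein of plasma cells, was at 736 and 734 CPM in MM1S, against 704 CPM in both H929 libraries and 1967 and 1548 CPM in OPM2.

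Of 14522 genes tested, edgeR's quasi-likelihood test called 9252 (63.7%) at an adjusted p below 0.05 between MM1S and the equally weighted mean of H929 and OPM2, 4646 higher and 4606 lower in MM1S. Against H929 alone it called 9181 genes (63.2%) and against OPM2 alone 9817 (67.6%). A gene was counted as set apart in MM1S when it was called in the same direction against both other lines, and 5270 genes (36.3%) were, 2609 higher (18%) and 2661 lower (18.3%). By the same rule 4642 genes (32%) were set apart in H929 and 5674 (39.1%) in OPM2. The order of the lines turned with the OPM2 control. Without OPM2 replicate 1 the counts were 5896 in MM1S, 5443 in H929 and 5233 in OPM2, and with untreated OPM2 cells they were 4962 in MM1S, 4849 in H929 and 4708 in OPM2. Of the genes set apart in MM1S, 2822 (19.4% of all tested) differed over 2-fold from each other line, 1454 higher (10.0%) and 1368 lower (9.42%). Over 4-fold there were 787 higher and 676 lower, and over 32-fold 272 higher and 217 lower. A further 1346 genes were called against both lines in opposite directions, with MM1S between H929 and OPM2. The median log2 fold change of all genes tested against the mean of the other lines was -0.02.

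**Figure D1:**
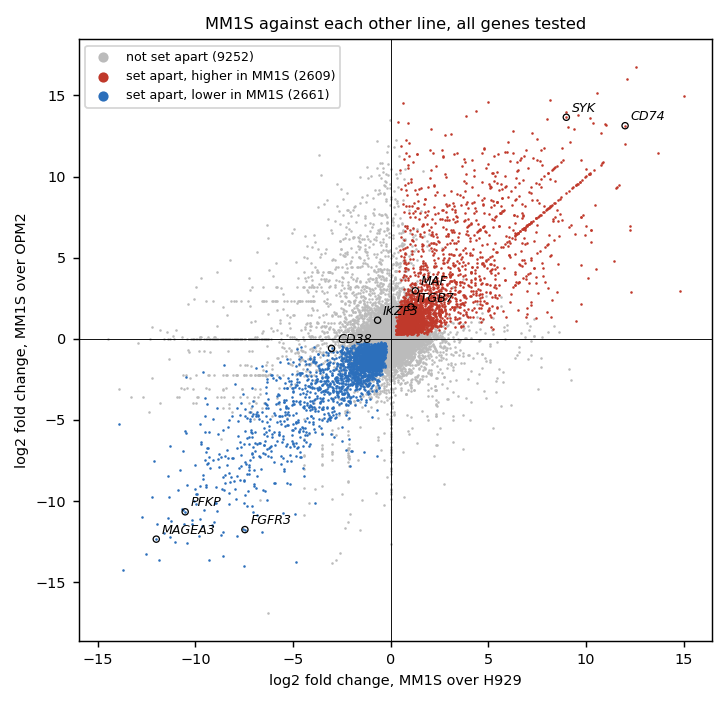
Log2 fold change of MM1S over H929 (x axis) and over OPM2 (y axis) for the 14522 genes tested, each point a gene, with the 2609 genes set apart higher in red, the 2661 set apart lower in blue and the rest in grey. Points on straight lines are genes with no or few counts in a line, whose fitted fold change depends on the prior count. CD74 and SYK lie at the far upper right, and MAGEA3, PFKP and FGFR3 at the far lower left.

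The genes furthest above both other lines included several known from immune cells. CD74, the invariant chain that escorts MHC class II molecules, had 1339 and 1337 CPM in MM1S, against 0.113 and 0.507 CPM in H929 and 0.221 and 0.0913 CPM in OPM2 (log2 fold change 12 ± 0.38 (SE) over H929 and 13.13 ± 0.42 over OPM2, edgeR adjusted p = 6.7e-12 and 4.1e-12). LAPTM5, a lysosomal protein of blood cells, had 1929 and 1944 CPM in MM1S, against 0.906 and 1.32 CPM in H929 and 0.368 and 0.228 CPM in OPM2 (log2 fold change 10.75 ± 0.33 (SE) over H929 and 12.70 ± 0.38 over OPM2, edgeR adjusted p = 4.7e-12 and 2.8e-12). TNFRSF13B, the receptor TACI for the plasma cell survival factors BAFF and APRIL, had 177 and 167 CPM in MM1S, against 0.0566 and 0.253 CPM in H929 and 0.147 and 0.0913 CPM in OPM2 (log2 fold change 10.00 ± 0.31 (SE) over H929 and 10.48 ± 0.33 over OPM2, edgeR adjusted p = 1.4e-11 and 9.8e-12). All 3 were under 2 CPM in every H929 and OPM2 library and over 100 CPM in both MM1S libraries.

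Others of the 20 genes at the top of this ranking are better known from other tissues. QPCT, which forms the pyroglutamate end of peptides, had 345 and 338 CPM in MM1S, against 0.17 and 0.152 CPM in H929 and 0.0735 and 0 CPM in OPM2, a difference of 2031-fold over H929 and 12133-fold (95% counting interval 2177 to 479286) over OPM2. NPNT (nephronectin, a matrix ligand of integrins) had 99.9 and 102 CPM in MM1S, against 0 CPM in both H929 libraries and 0 and 0.0456 CPM in OPM2, or at least 1256-fold over H929 and 3579-fold (95% counting interval 642 to 141389) over OPM2. GJA1, the gap junction protein connexin 43, had 72.5 and 69 CPM in MM1S, against 0 and 0.0507 CPM in H929 and 0 CPM in both OPM2 libraries, 2649-fold (95% counting interval 475 to 104661) over H929 and at least 838-fold over OPM2. These intervals and bounds cover counting error only, and "at least" marks a group with 0 counts, for which 3 counts over the group were taken as the floor. Innate immune genes also stood there. NOD2, a cytosolic sensor of bacterial peptidoglycan, had 14.4 and 14.3 CPM in MM1S, against 0 CPM in both H929 libraries and 0 CPM in both OPM2 libraries, at least 179-fold above H929 and at least 170.3-fold above OPM2. XCR1, the chemokine receptor known from cross-presenting dendritic cells, had 7.34 and 10.6 CPM in MM1S, against 0 CPM in both H929 libraries and 0 CPM in both OPM2 libraries. STAP1, an adaptor of B cell receptor signalling, had 7.93 and 7.39 CPM in MM1S, against 0 CPM in both H929 libraries and 0 CPM in both OPM2 libraries. Both were listed at 0 counts in all 4 libraries of the other lines. The rest of the 20 were SPINT1, PCP4, NLRP7, SERPINB6, SLC27A2, SNCAIP, CBLN2, ADGRB2, UGT2B15, SPESP1 and SYNDIG1, with means of 4.93 to 110.0 CPM in MM1S.

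**Figure D2:**
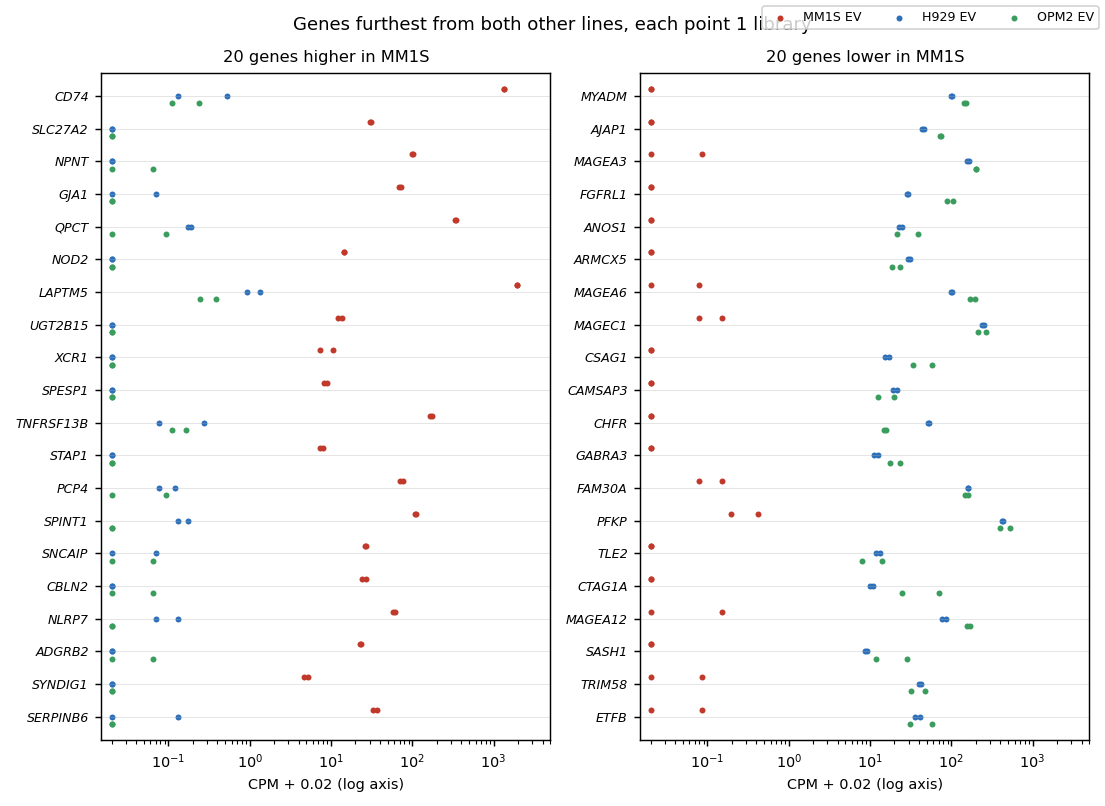
CPM of the 20 genes furthest above (left panel) and the 20 furthest below (right panel) both other lines in MM1S, on a log axis with 0.02 added so that 0 can be drawn. Each point is 1 library, red for MM1S, blue for H929 and green for OPM2. In every row the 2 MM1S points lie to one side of the 4 others with no overlap, as the rule for choosing these genes required.

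The genes furthest below both other lines fell into a group of tumour antigens and a mixed group of other genes. MAGEA3, a cancer-testis antigen of the X chromosome that is normally silent outside the germ line, had 0 and 0.066 CPM in MM1S, against 155 and 164 CPM in H929 and 203 and 199 CPM in OPM2, 5144-fold (95% counting interval 923 to 203222) lower than in H929 and 6458-fold (95% counting interval 1159 to 255111) lower than in OPM2. MAGEC1, another antigen of this kind often found in myeloma, had 0.0587 and 0.132 CPM in MM1S, against 256 and 239 CPM in H929 and 213 and 271 CPM in OPM2. PFKP, the platelet-type subunit of phosphofructokinase, a control point of glycolysis, had 0.176 and 0.396 CPM in MM1S, against 422 and 428 CPM in H929 and 526 and 403 CPM in OPM2 (log2 fold change -10.53 ± 0.37 (SE) over H929 and -10.66 ± 0.37 over OPM2, edgeR adjusted p = 1.4e-11 and 9.2e-12). MM1S was at or near 0 for all 3, with no overlap with the other lines. MYADM, a membrane protein of myeloid differentiation, was listed at 0 counts in both MM1S libraries, at least 1088-fold below H929 and at least 1588-fold below OPM2. CHFR, a mitotic checkpoint ubiquitin ligase that is often silenced in cancers, was also at 0 counts in MM1S, with 0 CPM in both MM1S libraries, against 52.1 and 53.2 CPM in H929 and 15.6 and 14.9 CPM in OPM2. FGFRL1, a receptor of the fibroblast growth factor family that lacks a kinase domain, had 0 CPM in both MM1S libraries, against 28.2 and 29 CPM in H929 and 105 and 88.2 CPM in OPM2. ETFB, a subunit of the electron transfer flavoprotein of mitochondria, had 0 and 0.066 CPM in MM1S, against 36.1 and 40.7 CPM in H929 and 57.9 and 30.7 CPM in OPM2. The other genes of this ranking were MAGEA6, MAGEA12, CSAG1, CTAG1A, AJAP1, ANOS1, ARMCX5, CAMSAP3, FAM30A, GABRA3, SASH1, TLE2 and TRIM58.

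Cancer-testis antigens as a list were low in MM1S. Of 21 members tested, 14 were set apart lower and 2 higher (CTNNA2 and TEX14), beside 18.3% and 18% of all genes tested. Their median log2 fold change against the mean of the other lines was -7.93, and -5.94 over the 19 members with a value when genes at 0 counts were held at the floor, beside -0.02 over all genes. The list summed to 154.1 and 146 CPM in the MM1S libraries, against 1545 and 1568 CPM in H929 and 1885 and 1544 CPM in OPM2. Most of the list's counts in MM1S were of MAGEA1, with 131 and 127 CPM in MM1S, against 167 and 168 CPM in H929 and 281 and 236 CPM in OPM2. MAGEA1 was set apart lower (log2 fold change -0.38 ± 0.11 (SE) over H929 and -1.0 ± 0.11 over OPM2, edgeR adjusted p = 0.0077 and 1.6e-06) and lost the call in 4 of 16 alternatives, among them leaving out replicate 2 of MM1S. MAGEA4 had 0.176 and 0.33 CPM in MM1S, against 476 and 489 CPM in H929 and 174 and 152 CPM in OPM2. CTAG2 had 0 and 0.066 CPM in MM1S, against 14.9 and 15.3 CPM in H929 and 535 and 284 CPM in OPM2, with the OPM2 libraries far above the rest. Members of the MAGEA, CTAG and SSX families are near-identical copies, and the sources used here do not say how the counting split reads among them.

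MHC class II presentation showed the opposite pattern. Of 16 members tested, 11 were set apart higher and 0 lower, beside 18% and 18.3% of all genes. Their median log2 fold change was 4.65. The list summed to 2129 and 2115 CPM in MM1S, against 242.7 and 246.2 CPM in H929 and 225.5 and 203.9 CPM in OPM2, and most counts of the list in the other lines were of RFX5, RFXANK and, in H929, CTSS. HLA-DRA, the monomorphic alpha chain of HLA-DR, had 299 and 289.6 CPM in MM1S, against 1.53 and 1.72 CPM in H929 and 2.43 and 2.15 CPM in OPM2 (log2 fold change 7.49 ± 0.49 (SE) over H929 and 7.02 ± 0.48 over OPM2, edgeR adjusted p = 7.5e-09 and 8.9e-09). HLA-DPA1, the alpha chain of HLA-DP, had 75 and 77.8 CPM in MM1S, against 0.283 and 0.355 CPM in H929 and 0.221 and 0.274 CPM in OPM2 (log2 fold change 7.86 ± 0.32 (SE) over H929 and 8.19 ± 0.33 over OPM2, edgeR adjusted p = 4.8e-11 and 3.7e-11). CIITA, the coactivator that switches class II genes on, had 17.3 and 18.7 CPM in MM1S, against 1.25 and 1.52 CPM in H929 and 1.91 and 2.05 CPM in OPM2 (log2 fold change 3.69 ± 0.27 (SE) over H929 and 3.17 ± 0.26 over OPM2, edgeR adjusted p = 2.8e-08 and 8.0e-08). The MM1S libraries were above all others for each of these. HLA-DMA, a subunit of the peptide loading enzyme HLA-DM, had 26.6 and 26.4 CPM in MM1S, against 1.13 and 0.912 CPM in H929 and 1.18 and 0.548 CPM in OPM2, and HLA-DRB1, a beta chain of HLA-DR, had 30.2 and 27.5 CPM in MM1S, against 0.226 and 0.405 CPM in H929 and 0.221 and 0.0913 CPM in OPM2. HLA-DRB1 and HLA-DRB5 are close copies with many alleles, so their split is uncertain. The members not set apart were HLA-DQA1, HLA-DOB, and the class II promoter factors RFX5, RFXAP and RFXANK. RFX5 had 158 CPM in both MM1S libraries, against 154 and 155 CPM in H929 and 110.2 and 131 CPM in OPM2, so MM1S differed little from either line (log2 fold change 0.03 ± 0.12 (SE) over H929 and 0.39 ± 0.13 over OPM2, edgeR adjusted p = 0.83 and 0.012). Of 6 B cell markers tested, CR2 was set apart higher and the others were not set apart. The 6 summed to 23.4 and 25.1 CPM in MM1S, against 9.91 and 9.12 CPM in H929 and 1.99 and 3.06 CPM in OPM2, and CR2 made up most of the sum in MM1S. PAX5 was near 0 in MM1S, and CD79A, a subunit of the B cell receptor, was at 0.763 and 0.528 CPM in MM1S, against 0.906 and 0.608 CPM in H929 and 0.221 and 0.183 CPM in OPM2. In class I presentation 3 of 22 members were set apart higher and 2 lower, beside the same shares of all genes. The total of 5 became 3 without MM1S replicate 1 or either H929 library.

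Class II genes share a promoter module whose X and Y boxes bind RFX and NF-Y, the complex that CIITA joins, and a pair of their promoters is shown because these genes were high together. A form of the X box (CAACNGATG) and of the Y box (CTGATTGG) was searched on both strands in the 250 bases before each RefSeq start (GRCh38.p14), which matched 13 of the 16 genes. The Y box form was in 4 of 8 genes set apart higher with a promoter sequence (HLA-DMA, HLA-DQB1, HLA-DRB1 and HLA-DRB5) and in 5 of all 13 members with one, the other being RFX5, beside 4.59% of 27305 genes and 3.81% of 35116 promoters. The X box form was in 2 of the 13, HLA-DRB1 and HLA-DRB5, beside 0.454% of genes and 0.362% of promoters. In the sequences, which run 5′ to 3′ and end at the last base before the start, capitals mark the X box form and then the Y box form in HLA-DRB1, and the Y box form in HLA-DMA. The letters of these forms were chosen with the promoters in view, and a match is a description only.
HLA-DRB1, chr6:32589849-32590098, - strand: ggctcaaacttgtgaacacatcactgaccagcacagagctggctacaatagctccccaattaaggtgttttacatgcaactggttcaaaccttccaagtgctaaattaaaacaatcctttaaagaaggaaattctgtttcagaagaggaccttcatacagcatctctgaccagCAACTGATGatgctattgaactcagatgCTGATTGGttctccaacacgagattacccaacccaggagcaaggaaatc
HLA-DMA, chr6:32953098-32953347, - strand: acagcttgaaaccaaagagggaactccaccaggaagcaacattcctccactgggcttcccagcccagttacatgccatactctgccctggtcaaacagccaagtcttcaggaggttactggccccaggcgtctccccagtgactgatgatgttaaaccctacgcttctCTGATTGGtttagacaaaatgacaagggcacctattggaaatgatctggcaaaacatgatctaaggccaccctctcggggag

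Genes of the NF-kB pathway were also higher in MM1S. NF-kB factors are held inactive in the cytoplasm, and the alternative arm runs through MAP3K14 (NIK) and the processing of NFKB2. Of 23 members tested, 12 were set apart higher and 0 lower, beside 18% and 18.3% of all genes, and the median log2 fold change was 0.68 (0.54 with genes at 0 counts held at the floor). Of the targets, BIRC3, an inhibitor of apoptosis that also brakes NIK, had 134 and 135 CPM in MM1S, against 6.62 and 6.69 CPM in H929 and 0.368 and 0.593 CPM in OPM2 (log2 fold change 4.34 ± 0.24 (SE) over H929 and 8.04 ± 0.33 over OPM2, edgeR adjusted p = 1.3e-09 and 3.8e-11). TNFAIP3 (A20), a feedback inhibitor, had 306 and 311 CPM in MM1S, against 24.8 and 24.3 CPM in H929 and 6.54 and 11.9 CPM in OPM2 (log2 fold change 3.65 ± 0.23 (SE) over H929 and 5.03 ± 0.25 over OPM2, edgeR adjusted p = 4.6e-09 and 2.7e-10). NFKB2 had 252 and 258 CPM in MM1S, against 96.8 and 106 CPM in H929 and 54.6 and 31.8 CPM in OPM2. In each of these H929 lay between MM1S and OPM2. Of the kinases and brakes, MAP3K14 had 49.4 and 52.4 CPM in MM1S, against 6.74 and 8.01 CPM in H929 and 17.7 and 12.7 CPM in OPM2, and CYLD, a deubiquitinase that restrains the pathway, had 198 and 202 CPM in MM1S, against 64.1 and 61.6 CPM in H929 and 32.4 and 48.4 CPM in OPM2. CD40, a receptor that feeds both arms, was low, at 5.17 and 4.75 CPM in MM1S, against 0.226 and 0.304 CPM in H929 and 0 CPM in both OPM2 libraries. TRAF3, which targets NIK for destruction, had 75.6 and 76.3 CPM in MM1S, against 59.6 and 55.3 CPM in H929 and 47.1 and 57.7 CPM in OPM2 and lost its call in 6 of 16 alternatives, and RELB lost its call in 8. NFKB1 was set apart higher but lost its call in the test against 1.5-fold and with untreated OPM2 cells as the control (log2 fold change 0.097 over these, edgeR adjusted p = 0.58). RELA, NFKBIA and REL were not set apart. REL, a factor of the classical arm, had 5.7 and 7.19 CPM in MM1S, against 40.2 and 34.4 CPM in H929 and 1.4 and 11.8 CPM in OPM2. It was set apart lower without OPM2 replicate 1 and with untreated OPM2 cells as the control (log2 fold change -2.19 over these, edgeR adjusted p = 0.0012). The list's count of 0 lower became 1 and 2 in these alternatives.

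A kB form (GGNNTTTCC, both strands) was in the 250 bases before a start in 7 of 9 NF-kB pathway genes set apart higher with a promoter sequence (BIRC3, CYLD, NFKB1, NFKB2, TNFAIP3, TNFRSF13B and TRAF3), beside 11 of all 19 members with one, 6.69% of genes and 5.48% of promoters. A gene with several promoters was counted when any held the form, and its letters too were chosen with the promoters in view. The promoters of BIRC3 and TNFAIP3 are shown with the kB forms in capitals, read on the opposite strand. TNFRSF13B, whose differences from both other lines were larger, is not shown. BIRC3 holds 1 such form, from 199 to 191 bases before its start, and TNFAIP3 holds 2, from 67 to 59 and from 55 to 47 bases before its start.
BIRC3, chr11:102317234-102317483, + strand: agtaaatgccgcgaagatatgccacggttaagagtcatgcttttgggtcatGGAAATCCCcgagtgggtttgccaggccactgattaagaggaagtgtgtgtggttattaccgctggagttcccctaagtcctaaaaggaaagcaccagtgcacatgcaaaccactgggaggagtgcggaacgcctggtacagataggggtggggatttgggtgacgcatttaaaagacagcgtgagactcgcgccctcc
TNFAIP3, chr6:137867009-137867258, + strand: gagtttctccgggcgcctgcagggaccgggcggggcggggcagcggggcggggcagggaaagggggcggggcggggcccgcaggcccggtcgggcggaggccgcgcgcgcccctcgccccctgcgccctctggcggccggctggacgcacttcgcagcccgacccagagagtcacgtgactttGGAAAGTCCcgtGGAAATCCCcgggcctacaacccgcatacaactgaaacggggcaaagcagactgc

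**Figure D3:**
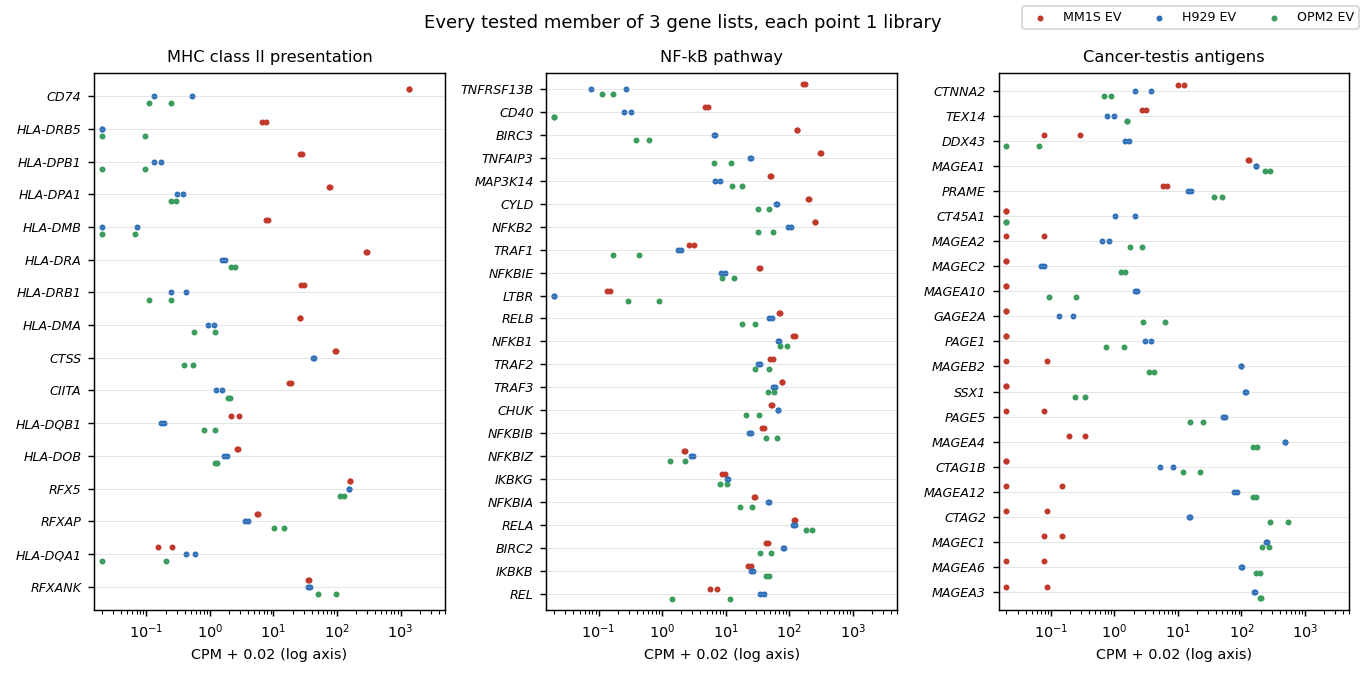
CPM of every tested member of the MHC class II (16 genes), NF-kB (23 genes) and cancer-testis antigen (21 genes) lists, on a log axis with 0.02 added, ordered by the log2 fold change of MM1S against the mean of the other lines. Each point is 1 library, red for MM1S, blue for H929 and green for OPM2. The red points lie right of the others down most of the class II panel and left of them down most of the cancer-testis panel.

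Genes of the translocations differed between the lines. MAF had 489 and 516 CPM in MM1S, against 224 and 197 CPM in H929 and 59.6 and 69.5 CPM in OPM2 (log2 fold change 1.26 ± 0.15 (SE) over H929 and 2.96 ± 0.16 over OPM2, edgeR adjusted p = 4.6e-06 and 8.3e-10). MM1S was highest, H929 and OPM2 were well above the limit of detection, and untreated OPM2 cells averaged 131 CPM. Among genes listed with MAF, 6 of 12 were set apart higher and 1 lower, beside 18% and 18.3% of all genes. Their median log2 fold change was 1.5. ITGB7, the integrin beta 7 subunit and a known MAF target, had 16955 and 17004 CPM in MM1S, against 8367 and 8226 CPM in H929 and 5221 and 3496 CPM in OPM2 (log2 fold change 1.03 ± 0.15 (SE) over H929 and 1.96 ± 0.16 over OPM2, edgeR adjusted p = 3.0e-05 and 4.7e-08). NUAK1, a kinase related to AMPK, had 107 and 104 CPM in MM1S, against 57.5 and 53.7 CPM in H929 and 18.1 and 31.7 CPM in OPM2. ARID5A, an RNA-binding protein that stabilises cytokine messages, had 381 and 375 CPM in MM1S, against 75.5 and 71.3 CPM in H929 and 118 and 70.2 CPM in OPM2. TLR4, the receptor for endotoxin, had 68.2 and 72.1 CPM in MM1S, against 8.38 and 6.89 CPM in H929 and 2.57 and 3.33 CPM in OPM2. CCND2, a D-type cyclin and MAF target, had 891 and 921 CPM in MM1S, against 279.7 and 268 CPM in H929 and 859 and 800.3 CPM in OPM2, above H929 and not called against OPM2 (log2 fold change 1.73 ± 0.12 (SE) over H929 and 0.13 ± 0.12 over OPM2, edgeR adjusted p = 1.6e-08 and 0.35). With untreated OPM2 cells as the control, CCND2 was set apart higher (log2 fold change 0.36 over these, edgeR adjusted p = 0.016). CCR1, a chemokine receptor often high with MAF, was not set apart. WWOX, the gene in which MAF breakpoints commonly fall, was the member set apart lower, at 1.82 and 2.7 CPM in MM1S, against 6.51 and 7.4 CPM in H929 and 16 and 13.2 CPM in OPM2 (log2 fold change -1.63 ± 0.24 (SE) over H929 and -2.69 ± 0.24 over OPM2, edgeR adjusted p = 3.9e-05 and 1.6e-07).

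FGFR3 had 0.529 and 0.726 CPM in MM1S, against 109.6 and 114 CPM in H929 and 2181 and 2167 CPM in OPM2, lowest in MM1S and highest in OPM2. NSD2 had 254 and 256 CPM in MM1S, against 764 and 724 CPM in H929 and 1149 and 1519.9 CPM in OPM2 (log2 fold change -1.55 ± 0.13 (SE) over H929 and -2.39 ± 0.13 over OPM2, edgeR adjusted p = 1.1e-07 and 1.1e-09), so it was present in MM1S at a lower level. MYEOV was high in H929, at 29 and 29.6 CPM in MM1S, against 306 and 322 CPM in H929 and 0.221 and 0 CPM in OPM2. Of the 11 genes of this list, 1 was set apart higher (DSG2, a desmosomal cadherin) and 3 lower (FGFR3, NSD2 and CDH2, the neural cadherin). Over all genes tested, 18% were set apart higher and 18.3% lower. The calls of DSG2 and CDH2 were lost in 7 and 6 of the 16 alternatives, and the total of 4 became 2 without either MM1S library or H929 replicate 2.

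MM1S carried less messenger RNA for several plasma cell genes. Of 14 plasma cell markers tested, 8 were set apart lower and 0 higher, beside 18.3% and 18% of all genes. Their median log2 fold change was -1.07. In a test against a 1.5-fold change the number lower was 3. XBP1, the factor that expands the secretory apparatus, had 727 and 688 CPM in MM1S, against 3716 and 3690.3 CPM in H929 and 2542 and 2489 CPM in OPM2 (log2 fold change -2.39 ± 0.10 (SE) over H929 and -1.83 ± 0.10 over OPM2, edgeR adjusted p = 5.7e-11 and 6.0e-10). IRF4, on which myeloma cells depend, had 709 and 766 CPM in MM1S, against 1943 and 1846 CPM in H929 and 1562 and 2217 CPM in OPM2 (log2 fold change -1.36 ± 0.15 (SE) over H929 and -1.36 ± 0.15 over OPM2, edgeR adjusted p = 1.9e-06 and 1.7e-06). JCHAIN, which joins polymeric antibodies, had 4221 and 4112 CPM in MM1S, against 12990.3 and 13823 CPM in H929 and 6067 and 6867 CPM in OPM2. TNFRSF17 (BCMA), a survival receptor and therapeutic target, had 307 and 286 CPM in MM1S, against 1352 and 1357 CPM in H929 and 582 and 438 CPM in OPM2. All 4 were abundant in MM1S, and its libraries were below all those of the other lines. SSR4, a subunit of the translocon-associated complex, had 186 and 158 CPM in MM1S, against 553 and 598 CPM in H929 and 736 and 385 CPM in OPM2. PRDM1 (BLIMP1) was set apart lower, at 246 and 251 CPM in MM1S, against 633 and 589 CPM in H929 and 279.9 and 468 CPM in OPM2, but lost its call in 6 of 16 alternatives, among them leaving out either MM1S library or OPM2 replicate 2. SDC1 and SLAMF7 were not set apart. Transcription factors of the lineage went both ways. SPI1 (PU.1), a myeloid and B cell factor usually silenced in myeloma, had 23.8 and 25.4 CPM in MM1S, against 4.19 and 3.75 CPM in H929 and 0 CPM in both OPM2 libraries. IRF8, its partner, had 15.8 and 16.1 CPM in MM1S, against 0.226 and 0.152 CPM in H929 and 0.809 and 0.958 CPM in OPM2. TCF4, an E protein, had 211 and 214 CPM in MM1S, against 25.2 and 27.2 CPM in H929 and 9.85 and 19.3 CPM in OPM2, while TCF3, another E protein, had 357 and 359 CPM in MM1S, against 851 and 859 CPM in H929 and 871 and 739 CPM in OPM2. In all, 6 of 28 B cell and plasma cell factors were set apart higher and 9 lower, beside the same shares of all genes. In bulk RNA, fewer cells of a type and less RNA per cell cannot be told apart.

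Immunoglobulin constant genes differed in kind between the lines. Of 13 constant and joining chain genes tested, 6 were set apart higher and 2 lower, beside 18% and 18.3% of all genes. JCHAIN, described above, was among those lower. IGHG1, the constant region of IgG1, had 215 and 222 CPM in MM1S, against 0 CPM in both H929 libraries and 35.7 and 21.5 CPM in OPM2, at least 2724-fold above H929. IGKC, the kappa constant region, was high in H929 only, at 0.998 and 3.83 CPM in MM1S, against 8419.5 and 8952 CPM in H929 and 1.18 and 1.87 CPM in OPM2, and IGLC3, a lambda constant region, in OPM2 only, at 9.81 and 10.2 CPM in MM1S, against 1.92 and 10.3 CPM in H929 and 10712 and 6471 CPM in OPM2. IGLL5, whose exons overlap the lambda locus, had 1264 and 1259 CPM in MM1S, against 268 and 275 CPM in H929 and 78.8 and 36.7 CPM in OPM2. Heavy and lambda constant regions are near-identical copies of one another, so the values of IGHG2, IGHG3 and IGLL5 can hold reads of their neighbours.

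Of 21 B cell receptor signalling genes tested, 8 were set apart higher in MM1S, 1 was lower and 12 were not set apart, beside 18% and 18.3% of all genes higher and lower. The median log2 fold change was 1.0, and the list summed to 1289 and 1291 CPM in MM1S, against 1281 and 1282 CPM in H929 and 343 and 376 CPM in OPM2. SYK, the kinase that binds the receptor's phosphorylated tails, had 99.4 and 97.8 CPM in MM1S, against 0.0566 and 0.304 CPM in H929 and 0 CPM in both OPM2 libraries, 507-fold over H929 and at least 1168-fold over OPM2. BTK, the target of ibrutinib, had 21.2 and 20.8 CPM in MM1S, against 4.81 and 4.51 CPM in H929 and 0 CPM in both OPM2 libraries. BLNK, the adaptor that joins them, had 27.9 and 30.1 CPM in MM1S, against 0.509 and 0.304 CPM in H929 and 3.82 and 4.61 CPM in OPM2. CD79B was the member set apart lower, at 4.05 and 4.22 CPM in MM1S, against 23.3 and 25 CPM in H929 and 20.7 and 11 CPM in OPM2. CR2, the complement receptor CD21 of mature B cells and the B cell marker set apart higher, was at 21.8 and 23.8 CPM in MM1S, against 1.02 and 1.27 CPM in H929 and 1.25 and 2.1 CPM in OPM2.

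Surface proteins that regulate T and NK cells were mostly higher. Of 22 co-stimulatory and inhibitory proteins tested, 12 were set apart higher and 1 lower, beside 18% and 18.3% of all genes. Their median log2 fold change was 1.89 (2.13 over the 21 members with a value when genes at 0 counts were held at the floor). CD86, the ligand of CD28 and CTLA4, had 30.5 and 26.2 CPM in MM1S, against 0.283 and 0.456 CPM in H929 and 0.0735 and 0.0913 CPM in OPM2. CD28, whose expression on myeloma cells is known, had 488 CPM in both MM1S libraries, against 335 and 321 CPM in H929 and 154 and 196 CPM in OPM2 (log2 fold change 0.57 ± 0.11 (SE) over H929 and 1.48 ± 0.11 over OPM2, edgeR adjusted p = 0.00038 and 3.2e-08). TIGIT, an inhibitory receptor of T and NK cells, had 39.2 and 40.8 CPM in MM1S, against 17.7 and 18.3 CPM in H929 and 0.294 and 0.365 CPM in OPM2. HAVCR2 (TIM-3), another of that kind, had 13.3 and 16 CPM in MM1S, against 1.98 and 2.08 CPM in H929 and 0.0735 and 0.0456 CPM in OPM2. CD47, which signals to macrophages not to engulf, had 218 and 236 CPM in MM1S, against 111 and 114 CPM in H929 and 89.4 and 86.2 CPM in OPM2. Each was highest in MM1S, with the nearest other line H929 in all 5.

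Of 20 targets of myeloma antibodies and CAR T cells, 5 were set apart higher and 4 lower, near the 18% and 18.3% of all genes, so single members are described. CD38, the target of daratumumab, had 10.8 and 11.2 CPM in MM1S, against 90.2 and 90.1 CPM in H929 and 15.6 and 17.4 CPM in OPM2 (log2 fold change -3.03 ± 0.23 (SE) over H929 and -0.59 ± 0.22 over OPM2, edgeR adjusted p = 2.8e-08 and 0.03). MM1S thus had the lowest level, far below H929 and close to OPM2. Against untreated OPM2 cells, which averaged 11.8 CPM, the difference was not called (log2 fold change -0.10, edgeR adjusted p = 0.72), and the call that sets CD38 apart was lost in 8 of 16 alternatives, among them leaving out any single MM1S or OPM2 library. NCAM1 (CD56), a common myeloma marker, had 2.06 and 3.1 CPM in MM1S, against 205 and 211 CPM in H929 and 137 and 188 CPM in OPM2 (log2 fold change -6.34 ± 0.30 (SE) over H929 and -5.98 ± 0.29 over OPM2, edgeR adjusted p = 2.0e-10 and 2.5e-10). CD48, a ligand of the receptor 2B4, had 214 and 207 CPM in MM1S, against 878 and 983 CPM in H929 and 666 and 553 CPM in OPM2. On the other side, CD70 had 12.5 and 14.8 CPM in MM1S, against 0.34 and 0.507 CPM in H929 and 0 CPM in both OPM2 libraries, and ITGB7, CD74, CD40 and LY9 were also set apart higher, LY9 with its call lost in 10 of 16 alternatives. CD44 had 1114 and 1137 CPM in MM1S, against 1129 and 1095 CPM in H929 and 33.2 and 39.3 CPM in OPM2, so OPM2 alone was far lower. Of adhesion genes, 8 of 29 were set apart higher and 6 lower, beside the same shares of all genes. The total of 14 became 9 without either MM1S library. SELPLG, the ligand of P-selectin, had 898 and 841 CPM in MM1S, against 264 and 275 CPM in H929 and 194 and 128 CPM in OPM2, and VIM (vimentin) had 478 and 491 CPM in MM1S, against 1761 and 1825 CPM in H929 and 2721 and 2194 CPM in OPM2.

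Of the study's own targets, IKZF1 and IKZF3 are the transcription factors that lenalidomide removes through cereblon. IKZF1 had 179 and 185 CPM in MM1S, against 128 and 120.2 CPM in H929 and 94.3 and 188 CPM in OPM2 and was called against neither line (edgeR adjusted p = 0.052 and 0.18). It stayed not set apart in 14 of 16 alternatives, all but those without a low-count filter and without OPM2 replicate 2. IKZF3 had 97.6 and 112 CPM in MM1S, against 183 and 152 CPM in H929 and 44 and 50.3 CPM in OPM2, which placed MM1S below H929 and above OPM2 (log2 fold change -0.68 ± 0.17 (SE) over H929 and 1.15 ± 0.17 over OPM2, edgeR adjusted p = 0.0031 and 3.9e-05). CRBN (cereblon), the receptor of lenalidomide, had 34.9 and 33.4 CPM in MM1S, against 28.6 and 30.2 CPM in H929 and 17 and 23.8 CPM in OPM2, above OPM2 and not called against H929 (log2 fold change 0.22 ± 0.18 (SE) over H929 and 0.73 ± 0.18 over OPM2, edgeR adjusted p = 0.3 and 0.0021). Of 16 genes of the cereblon ligase and its substrates, 3 were set apart higher and 1 lower, beside 18% and 18.3% of all genes. The total of 4 became 7 without OPM2 replicate 2. GLUL (glutamine synthetase), a natural cereblon substrate, was the one with the largest difference, at 104 and 99.8 CPM in MM1S, against 7.19 and 7.15 CPM in H929 and 0 CPM in both OPM2 libraries, at least 1208-fold over OPM2.

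Interferon-stimulated genes were raised in part. Of 49 tested, 19 were set apart higher and 2 lower, beside 18% and 18.3% of all genes, with a median log2 fold change of 1.38. The list's summed level was nevertheless 1845 and 1835 CPM in MM1S, against 2189 and 2229 CPM in H929 and 1666 and 1596 CPM in OPM2. The higher count was 12 without H929 replicate 1. IFIH1 (MDA5), a sensor of double-stranded RNA, had 114 CPM in both MM1S libraries, against 13.8 and 14 CPM in H929 and 1.84 and 2.01 CPM in OPM2 (log2 fold change 3.04 ± 0.31 (SE) over H929 and 5.88 ± 0.38 over OPM2, edgeR adjusted p = 7.4e-07 and 5.3e-09). PARP14, an ADP-ribosyltransferase, had 29.7 and 30.5 CPM in MM1S, against 5.09 and 4.36 CPM in H929 and 0.441 and 0.776 CPM in OPM2, and DTX3L, a ubiquitin ligase, had 21 and 20.1 CPM in MM1S, against 1.81 and 1.62 CPM in H929 and 4.71 and 4.52 CPM in OPM2. LY6E was the clearest member in the other direction, at 2.06 and 1.85 CPM in MM1S, against 89.9 and 95.7 CPM in H929 and 214 and 103 CPM in OPM2. IRF7, the master factor of the type I response, had 28.4 and 31.3 CPM in MM1S, against 35.8 and 37.7 CPM in H929 and 0.0735 and 0 CPM in OPM2, so OPM2 stood apart. Of 18 nucleic acid sensors, 6 were set apart higher and 3 lower, beside the same shares of all genes. TLR7, the endosomal receptor of single-stranded RNA, had 80 and 76.8 CPM in MM1S, against 0.283 and 0.456 CPM in H929 and 0 and 0.183 CPM in OPM2. IRF5, which acts below it, had 121 and 128 CPM in MM1S, against 39.7 and 39.9 CPM in H929 and 0.882 and 0.913 CPM in OPM2, and UNC93B1, which carries it to endosomes, had 221 and 209.9 CPM in MM1S, against 68.1 and 66.1 CPM in H929 and 27.1 and 17.3 CPM in OPM2. IRAK1, a kinase of the same pathway, was lower, at 428 and 418 CPM in MM1S, against 992 and 989 CPM in H929 and 1039.6 and 749 CPM in OPM2.

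Of 34 cytokine receptor and JAK-STAT genes, 10 were set apart higher and 7 lower, beside 18% and 18.3% of all genes. Their median log2 fold change was 0.045, so single members are described. IL2RG, the common gamma chain shared by receptors of several interleukins, had 323 and 326 CPM in MM1S, against 7.59 and 7.1 CPM in H929 and 0.0735 and 0.137 CPM in OPM2 (log2 fold change 5.47 ± 0.69 (SE) over H929 and 11.40 ± 1.08 over OPM2, edgeR adjusted p = 6.9e-06 and 3.3e-07). IFNGR2, IL10RB and IFNAR1, receptor chains whose genes lie close together on chromosome 21, were all set apart higher. IFNGR2 had 52.1 and 52.7 CPM in MM1S, against 3.68 and 3.75 CPM in H929 and 11.2 and 10.8 CPM in OPM2. SOCS3, the feedback inhibitor of cytokine signalling, had 0.176 and 0.132 CPM in MM1S, against 7.36 and 5.93 CPM in H929 and 2.28 and 2.1 CPM in OPM2. Of 13 chemokines and their receptors, 5 were set apart higher and 0 lower, beside the same shares of all genes. Their median log2 fold change was 2.56. CCR2 had 16.6 and 12.8 CPM in MM1S, against 0.0566 and 0 CPM in H929 and 0 and 0.137 CPM in OPM2, and CXCL10, an interferon-inducible chemokine, had 6.81 and 8.44 CPM in MM1S, against 0 CPM in both H929 libraries and 0 and 0.137 CPM in OPM2. The chemokine CCL3, with 1546 and 1585 CPM in MM1S, against 1237 and 1201 CPM in H929 and 80.2 and 50.8 CPM in OPM2, was above OPM2 only.

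Of 17 members of the BCL2 family, which controls cell death, 6 were set apart higher and 4 lower, beside 18% and 18.3% of all genes, with a median log2 fold change of 0.36. In a test against a 1.5-fold change 2 were higher and 2 lower. BCL2L1 (BCL-XL), an antiapoptotic protein, had 352 and 362 CPM in MM1S, against 56.4 and 52.1 CPM in H929 and 60.4 and 44.7 CPM in OPM2 (log2 fold change 2.72 ± 0.18 (SE) over H929 and 2.77 ± 0.18 over OPM2, edgeR adjusted p = 7.2e-09 and 4.9e-09). BCL2L11 (BIM), its proapoptotic counterpart, had 175 and 182 CPM in MM1S, against 45.2 and 42.4 CPM in H929 and 37.9 and 51.1 CPM in OPM2. BCL2L2 (BCL-W) had 0.0587 and 0.066 CPM in MM1S, against 10.1 and 9.78 CPM in H929 and 3.46 and 3.51 CPM in OPM2. MM1S was highest for BCL2L1 and BCL2L11 and near the limit of detection for BCL2L2. MCL1, on which most myelomas rely, had 469 and 448 CPM in MM1S, against 1875 and 1810.2 CPM in H929 and 331 and 417 CPM in OPM2 and was lower than in H929 only. CDKN2A, the gene of the tumour suppressors p16 and p14ARF, had 0.117 and 0.132 CPM in MM1S, against 70.9 and 77 CPM in H929 and 451 and 288 CPM in OPM2, and its neighbour CDKN2B had 0.235 and 0.066 CPM in MM1S, against 3.74 and 4.41 CPM in H929 and 9.78 and 11.8 CPM in OPM2, so both were near the limit of detection in MM1S alone. CDKN1B (p27) was set apart higher, at 219 and 222 CPM in MM1S, against 56.2 and 56.5 CPM in H929 and 129 and 169 CPM in OPM2, but untreated OPM2 cells averaged 225 CPM and the call against them was lost. TP73, a relative of p53, had 21.4 and 23 CPM in MM1S, against 0.17 and 0.507 CPM in H929 and 0 CPM in both OPM2 libraries. MYC had 284 and 302 CPM in MM1S, against 513 and 449.5 CPM in H929 and 522 and 603 CPM in OPM2 and was lower in MM1S (log2 fold change -0.71 ± 0.15 (SE) over H929 and -0.94 ± 0.15 over OPM2, edgeR adjusted p = 0.00065 and 5.3e-05).

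The next list held 27 targets of ATF4, the factor of amino acid and unfolded protein stress, and amino acid synthesis genes. Of these, 10 were set apart lower and 2 higher, beside 18.3% and 18% of all genes. Their median log2 fold change was -0.53. CTH, which makes cysteine, had 3.23 CPM in both MM1S libraries, against 16.4 and 16 CPM in H929 and 29.2 and 36.5 CPM in OPM2. DDIT4, an inhibitor of mTORC1, had 13.2 and 12.1 CPM in MM1S, against 336 and 502 CPM in H929 and 243 and 189 CPM in OPM2. CEBPB had 23.8 and 24.5 CPM in MM1S, against 87.6 and 82.8 CPM in H929 and 155 and 119 CPM in OPM2. SLC7A5 and SLC3A2, which form a transporter of large amino acids, were both lower, SLC7A5 with 476 and 495 CPM in MM1S, against 1274 and 1252 CPM in H929 and 2283 and 2039.5 CPM in OPM2. Of 28 glycolysis and hypoxia genes, 8 were set apart lower and 3 higher, beside the same shares of all genes, with a median of -0.43. ENO1, the ubiquitous enolase, had 1369.7 and 1305 CPM in MM1S, against 4302 and 4494 CPM in H929 and 4065 and 2489 CPM in OPM2, while ENO2, the neuronal enolase, had 241 and 248 CPM in MM1S, against 27.5 CPM in both H929 libraries and 3.24 and 2.1 CPM in OPM2. The members of this pair thus differed in opposite directions. HK2 (hexokinase 2) had 79.2 and 79.5 CPM in MM1S, against 317 and 377 CPM in H929 and 126 and 220.2 CPM in OPM2, and SLC2A3, a glucose transporter of high affinity, was higher, at 15.6 and 13.4 CPM in MM1S, against 0 and 0.253 CPM in H929 and 0.294 and 0.365 CPM in OPM2. In cholesterol and fatty acid synthesis 7 of 29 were set apart higher and 5 lower, near the 18% and 18.3% of all genes. The median was 0.098, so single members are described. HMGCS1, MSMO1 and LSS were higher, and SQLE, the squalene epoxidase, was lower, at 15.3 and 13.3 CPM in MM1S, against 69.7 and 74.2 CPM in H929 and 111 and 130.1 CPM in OPM2.

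Of 21 secreted factors that act on bone or through Wnt, 5 were set apart higher and 5 lower, near the shares of all genes. WNT10A had 96.8 and 100.2 CPM in MM1S, against 0.623 and 0.659 CPM in H929 and 0.294 and 0.228 CPM in OPM2 (log2 fold change 7.24 ± 0.25 (SE) over H929 and 8.56 ± 0.28 over OPM2, edgeR adjusted p = 1.0e-11 and 5.3e-12), whereas WNT10B had 0.176 and 0.066 CPM in MM1S, against 40.9 and 41.1 CPM in H929 and 5 and 3.42 CPM in OPM2. TGFB1 had 49.1 and 49.7 CPM in MM1S, against 483 and 468 CPM in H929 and 327 and 207 CPM in OPM2. DKK1, the Wnt inhibitor linked to bone lesions, was low in all lines and set apart higher, at 6.69 and 5.67 CPM in MM1S, against 0.962 and 0.456 CPM in H929 and 0.882 and 1.14 CPM in OPM2. FGF2, a ligand of fibroblast growth factor receptors, had 8.05 and 7.32 CPM in MM1S, against 0.849 and 1.32 CPM in H929 and 0 CPM in both OPM2 libraries.

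**Figure D4:**
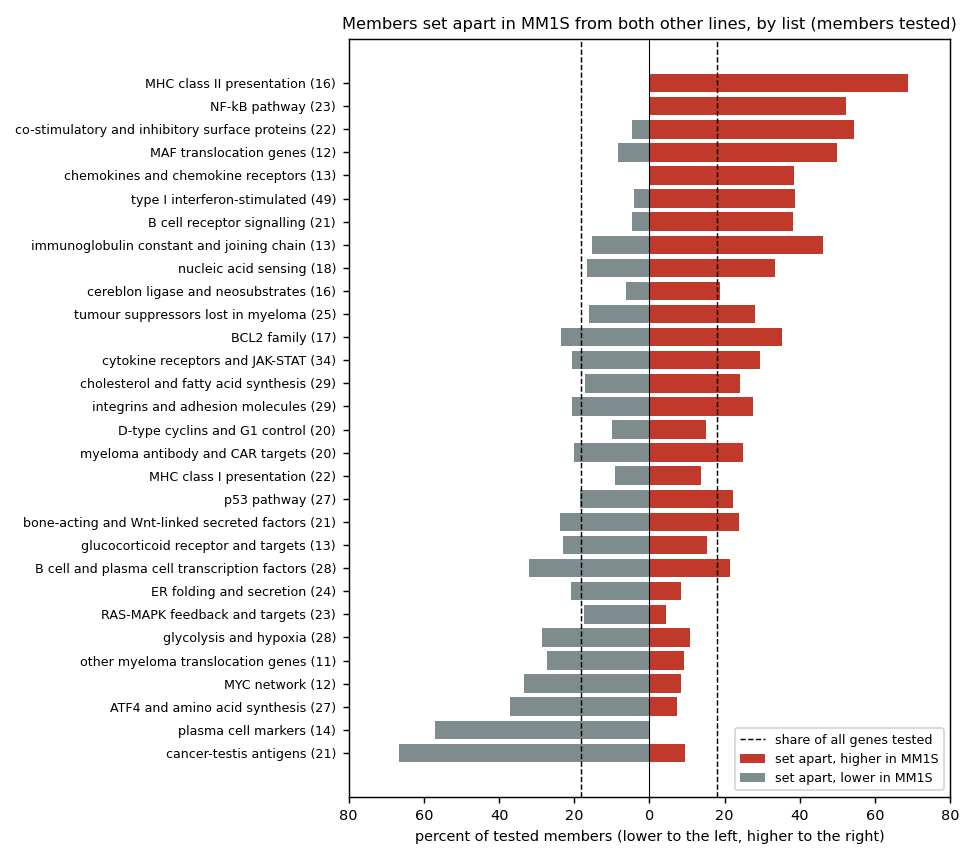
Percent of the tested members of each list with at least 10 of them that were set apart in MM1S, higher to the right in red and lower to the left in grey, with the number tested in brackets. Dashed lines mark the shares over all 14522 genes, 18% higher and 18.3% lower. MHC class II genes (11 of 16 higher) and NF-kB genes (12 of 23 higher) lie at the top, and plasma cell markers (8 of 14 lower) and cancer-testis antigens (14 of 21 lower) at the bottom.

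The other lists are given by their counts, beside shares over all genes of 18% higher and 18.3% lower. D-type cyclins and other G1 genes had 3 of 20 members set apart higher and 2 lower, the p53 pathway 6 of 27 and 5, and tumour suppressors lost in myeloma 7 of 25 and 4. RAS-MAPK genes had 1 of 23 higher and 4 lower, the MYC network 1 of 12 and 4, endoplasmic reticulum folding and secretion 2 of 24 and 5, and glucocorticoid receptor genes 2 of 13 and 3. Drug transporters had 0 of 9 higher and 3 lower, complement inhibitors 2 of 6 and 1, myeloid markers 3 of 7 and 0, and T and NK cell markers 1 of 8 and 1. The erythroid and stromal lists had 0 of 2 and 0 of 3 members set apart. Each count of 0 given for a list was also 0 at an unadjusted p below 0.05 in edgeR and with DESeq2 and limma-voom. Leaving out a single library moved some totals of this paragraph by over 1.5 times. The G1 total of 5 became 8 without either OPM2 library. Without OPM2 replicate 2 the tumour suppressor total of 11 became 17, the RAS-MAPK total of 5 became 8 and the secretion total of 7 became 11. The p53 total of 11 became 7 without MM1S replicate 2, and the transporter total of 3 became 5 without OPM2 replicate 1. The RAS-MAPK total was 3 without H929 replicate 1, and the MYC total of 5 was 3 without that library or either of MM1S. The T and NK cell total of 2 became 1 without any MM1S or H929 library, and the stromal total became 1 without any library other than OPM2 replicate 2.

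Genes set apart were unevenly spread over the genome, a view taken after the values were seen and given without a test. On chromosome 14, 177 of 487 genes tested (36.3%) were set apart lower and 44 (9.03%) higher, with a median log2 fold change of -0.66 against the mean of the other lines. The same median was -0.82 against H929 and -0.46 against OPM2. On chromosome 21 the balance was reversed, with 56 of 164 genes (34.1%) higher and 28 (17.1%) lower. Chromosomes 7, 3 and 2 had 26.7%, 25.5% and 23.8% of genes higher, and chromosomes 19, 16 and 11 had 25.7%, 24.8% and 24.2% lower.

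Along the chromosomes, 570 windows of 25 consecutive tested genes were counted, on RefSeq coordinates of GRCh38.p14. The largest number set apart lower was 20 of 25, between GSKIP and RCOR1 on chromosome 14 (96363526 to 102730561), with none higher. A run of 4 consecutive windows on the long arm of chromosome 12, from BRAP to RILPL2 (111642146 to 123436684), held 15, 14, 18 and 17 lower. The window just before this run, from 109553715, held 14 lower, and those after it, up to 133159465, held 12 and 17. On the long arm of chromosome 16, the windows CFDP1 to MPHOSPH6, HSBP1 to LOC100129215 and KLHDC4 to ZNF778 held 15, 16 and 14 lower. WWOX and MAF lie within the first of these. The lowest median was that of the window HMGB3 to HAUS7 on chromosome X (150980507 to 153495465), at -5.07, where 12 genes were lower and none higher and where the MAGEA genes lie. Fitted values of genes with no or few counts in a line depend on the prior count, so the size of this median is uncertain. The largest numbers set apart higher were 16 of 25 between IQCE and RAC1 on chromosome 7 (2558979 to 6403967) and 15 of 25 between IKBKE and TRAF5 on chromosome 1 (206470476 to 211374946).

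**Figure D5:**
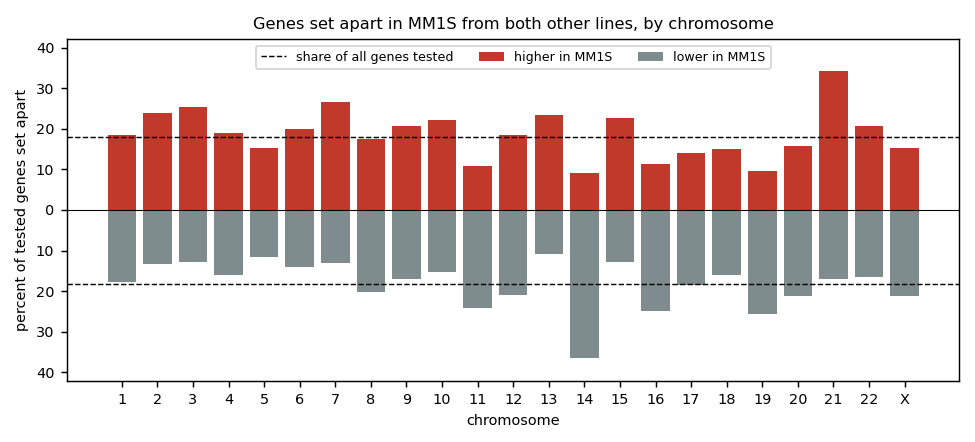
Percent of the genes tested on each chromosome that were set apart in MM1S, higher above 0 in red and lower below 0 in grey. Dashed lines mark the shares over all genes, 18% and 18.3%. Chromosome 21 has the tallest red bar (34.1%) and chromosome 14 the longest grey bar (36.3%).

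In the authors' deposited table of log2 FPKM, where each line's empty vector libraries are merged into 1 column, 5262 of the 5270 genes set apart (99.8%) had the same direction against both lines. These columns come from the same libraries, so this compares processing only. The merged log2 FPKM of CD74 in the authors' deposited table was 9.93 in MM1S, -2.81 in H929 and -2.98 in OPM2, and that of HLA-DRA was 7.93, -0.03 and 1.12 in the same order. On that per-length scale the authors' deposited table gives ITGB7 at 11.81 in MM1S, above CD74.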

How the data were processed

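The main measurement was the raw count of reads per Entrez gene that the authors deposited for each library. Subread, featureCounts, limma and the build GRCh38 are named in the submitters' processing notes, without settings. A second deposited table holds log2 FPKM values, with the empty vector libraries of each line merged by the authors, and was used only to compare directions and levels per gene length. The steps behind those log2 values are not recorded in the labels.

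Of 28395 genes in the count table, 385 without a symbol, holding 0.0121% to 0.0276% of the counts of a library, were left out, and 27744 of the remaining 28010 matched RefSeq (GRCh38.p14) by Entrez ID. The 37 mitochondrially encoded genes are listed with 0 counts in every library, so they give no measure of RNA quality. The main test was edgeR's (4.0.16, R 4.3.3), with limma 3.58.1 and DESeq2 1.42.0 in alternatives. After filterByExpr by group 14522 genes remained, and TMM set the scaling. A robust quasi-likelihood fit over the 18 libraries in 9 groups left 9 residual degrees of freedom. The fit was also run on simulated data in which few genes differed between groups. In the real data most genes did, so that run gives no error rate for them. Calls required an adjusted p (Benjamini-Hochberg, over all genes tested) below 0.05, and each adjusted p of a gene is edgeR's. SE was taken from the fold change and its F statistic. No exact permutation test was run, because its smallest p for 2 libraries against 2 is 0.333. Intervals are exact at 95% and cover counting error only.

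Genes named were the 20 set apart higher and the 20 lower with the largest smaller difference from the other lines, whose average log2 CPM reached 1 and which showed no overlap of MM1S with the other libraries, leaving aside immunoglobulin segments, Y-linked genes, XIST and names of the LOC, LINC or pseudogene kind. To these were added CD38, IKZF1, IKZF3, CRBN and MAF, and up to 6 members of each of 37 gene lists with the smallest p. Other members named were chosen after their values were seen. The lists and the comparison were chosen with earlier results of these data known. Lists are described by counts and medians, with no test of a list. The 16 alternatives covered scaling, the low-count filter, the test, the libraries in the fit, the replicate block, untreated OPM2 cells as the OPM2 control, a test against 1.5-fold, and leaving out each empty vector library.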

Additional observations from a re-analysis of the deposited data

How the results depend on the processing

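Of the 16 alternatives, only the test against a 1.5-fold change moved the total of any of the 6 counts over all genes by over 1.5 times. Under it 5515 genes were called against the mean of the other lines, 5776 against H929 and 6531 against OPM2, with 3024 set apart in MM1S, 2502 in H929 and 3122 in OPM2. Leaving out 1 library gave 7651 to 10394 genes called against the mean, 4246 to 5896 set apart in MM1S, 7747 to 10598 called against H929, 8448 to 10646 against OPM2, 3629 to 5443 set apart in H929 and 4923 to 7071 in OPM2. With only the 6 empty vector libraries in the fit, 4017 genes were set apart in MM1S, and 74.7% of the 5270 kept the call. With a replicate block on the 6 empty vector libraries, 3746 genes were set apart in MM1S, 3184 in H929 and 3869 in OPM2. By direction, this moved the genes set apart higher in OPM2 to 1744, against 2979 in the main test, and those lower in H929 to 1253, against 2098, and the 6 libraries alone without the block moved the first to 1894. No pairing by number was seen, since deviations of same-numbered libraries correlated at -0.0136, 0.0589 and -0.0756 between lines. These values cannot exclude a shared preparation, because each line gave only the difference between its 2 libraries. No gene set apart was set apart in the opposite direction under any alternative, and 57.4% to 99.0% of the 5270 kept the call. Of 187 genes named with a test, 155 were set apart and 133 of these under every alternative. With untreated OPM2 as the OPM2 control, the log2 difference from the mean of the other lines turned to -0.18 for CCR1, -0.0073 for SLAMF7 and 0.049 for HAUS7. Over the fits without 1 library it ran from -0.77 to 1.65 for HLA-DQA1, above 0 without MM1S replicate 2 or OPM2 replicate 2, from -0.0032 to 0.20 for IQCE, below 0 without MM1S replicate 2, and from -0.30 to 0.015 for NFKBIA, above 0 without OPM2 replicate 1. The cause of these turns was not tested. Depth limits genes under about 3 counts in a group. Where a fold over a line is stated for such a gene, it is a bound or has a counting interval. The others are given by their CPM only.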
